A study of Sus scrofa with 75 samples.

Results

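The genes described here encode the voltage-gated sodium and calcium channels and were taken from the deposited pig annotation by name: SCN followed by a number and A or B, CACNA1, CACNA2D, CACNB and CACNG. The rule found 39 genes among the 35936 of the annotation, namely 10 sodium channel alpha genes, 3 sodium channel beta genes, 10 calcium channel alpha1 genes, 4 alpha2delta genes, 4 calcium channel beta genes and 8 gamma genes. Libraries came from heart, kidney, liver, lung and spleen of male pigs (Sus scrofa) aged 12 months, in groups that the titles code BS and DSE, and a further group coded DT was not analysed here. Each pig group and organ gave 4 Illumina RNA-seq libraries, made after depletion of ribosomal RNA, so that 40 libraries were compared, and 1 PacBio library, which reads whole transcripts. The labels do not explain the pig codes, and they name no treatment or genotype. Whole organs were sampled, so fewer cells of a type and less RNA per cell cannot be told apart.

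A voltage-gated channel is built around 1 large pore-forming subunit that senses the membrane voltage and opens to let sodium or calcium into the cell. Sodium channels start the action potential of nerve and muscle. Calcium channels turn the voltage change into contraction, secretion or gene regulation, and are sorted into long-lasting L-type currents, low-threshold T-type currents and the P/Q, N and R types of nerve endings. The smaller subunits assist: sodium channel beta subunits tune gating and act in cell adhesion, calcium channel beta subunits bind the pore subunit inside the cell, alpha2delta subunits carry it to the cell surface, and gamma subunits modify it or, in several cases, accompany glutamate receptors instead. In heart muscle the L-type channel of CACNA1C carries the plateau of the action potential.

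Levels were deposited as TPM, a length-scaled share of all transcripts, in which every library sums to 1000000, so the short-read depth is unknown. Organs and pig groups were compared with limma on log2(TPM + 1), with Benjamini-Hochberg adjustment over all tested genes, and a gene counted as highest in an organ where all 4 contrasts with the other organs were above 0 and the largest adjusted p was 0.05 or less. Fold changes on this scale understate the change of low genes. Defining markers matched the organ labels: the summed level of 6 heart muscle markers was 28690 to 36380 TPM in BS hearts and 26200 to 30170 TPM in DSE hearts. The highest BS liver held 151.7 TPM of these markers, while the DSE livers stayed at or under 0.127 TPM. It was BS4, whose liver had 47.1 TPM of the ventricular light chain MYL2. Hepatocyte, kidney epithelium, lung epithelium and B cell markers were likewise highest in liver, kidney, lung and spleen. TPM is relative to the rest of the library, and the median of all tested genes differed between organs by 1.11 on the log2 scale for lung minus liver, by -1.06 for heart minus lung, by -0.74 for heart minus spleen and by -0.59 for heart minus kidney. Organ differences are therefore also given after rescaling each library by median-ratio size factors for calls of the named members that this ended. The labels do not say which libraries share an animal, and p-values measure the spread between these samples.

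Of the 39 genes, 19 reached a mean of 1 TPM in at least 1 organ: 2 of 10 sodium channel alpha genes, all 3 sodium channel beta genes, 6 of 10 calcium channel alpha1 genes, 3 of 4 alpha2delta genes, all 4 calcium channel beta genes and 1 of 8 gamma genes. Heart held 11 genes at or above that mean, kidney 4, liver 2, lung 12 and spleen 12. CACNA2D1 was at 1 TPM or more in all 5 organs. CACNA1E, CACNA1I, CACNA1S, CACNA2D2, CACNA2D3, CACNB1 and SCN2B passed this level in a single organ and had to be high there to be tested. With genes tested from a mean of 0.1 TPM, each was still highest in that organ. The limma adjusted p then ran from 4.53e-13 (CACNA2D2) to 0.000377 (CACNB1). As deposited, the alpha1 sum had its highest mean in lung, at 21.9 ± 4.3 TPM. Heart followed at 16.4 ± 3.6 TPM, spleen at 13.2 ± 3.9 TPM, kidney at 5.29 ± 1.48 TPM and liver at 0.891 ± 0.221 TPM (SD, n = 8 libraries each). The heart libraries, 12.49 to 21.67 TPM, overlapped the lung libraries, 16.55 to 28.23 TPM. Lung did not lead heart after median-ratio scaling. On that scale CACNA1C was at 17.24 TPM in heart and 2.235 TPM in lung, and CACNA1H at 6.881 and 5.998 TPM. CACNA1D was higher in lung, at 0.09226 TPM in heart and 3.143 TPM in lung. Every other alpha1 gene was below 1 TPM in both organs.

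**Figure D1:**
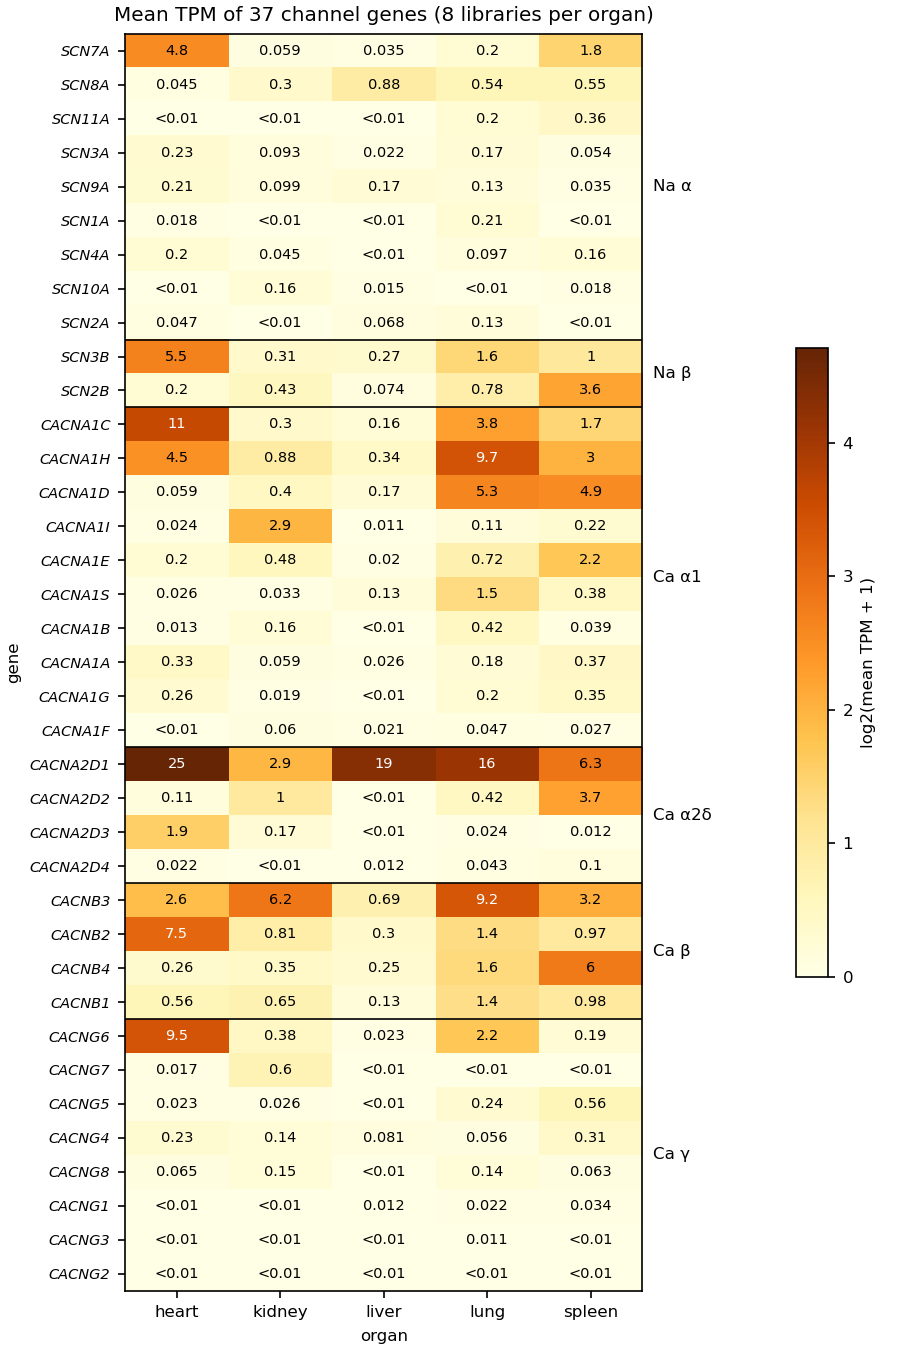
Mean TPM of 37 of the channel genes (rows, grouped by subunit family) in each organ (columns, 8 libraries per organ), with the value printed in each cell and the color showing log2(mean TPM + 1). CACNA2D1 is above 2 TPM in every organ, CACNA1C stands at 11.02 TPM in heart, and 7 of the 8 gamma genes stay below 1 TPM throughout.

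Heart was the organ with the most such calls: 8 of the 19 tested members were highest there, as were 6.44% of all 16481 tested genes, and 0 were lowest there, beside 20.9%. CACNA1C, the L-type pore subunit of heart and smooth muscle (chromosome 5, 69275176 to 69448430, plus strand), gave 11.2, 11.7, 11.4 and 12.6 TPM in the BS hearts and 11.4, 9.19, 11.2 and 9.56 TPM in the DSE hearts. Every heart lay above every lung, where the lowest, median and highest libraries had 2.06, 3.90 and 5.20 TPM. The difference between heart and lung was 1.38 ± 0.11 on the log2 scale (limma, adjusted p = 2.02e-13). CACNA1C made up 99.2 ± 0.3% of the TPM of the 4 L-type genes in heart, against 37.7 ± 6.9% in kidney, 35.9 ± 6.3% in lung, 34.4 ± 16.7% in liver and 24.4 ± 6.1% in spleen (SD, n = 8 each). Other L-type genes were low in heart, where CACNA1D, an L-type gene of pacemaker, endocrine and sensory cells, averaged 0.0591 TPM and CACNA1S, the L-type gene of skeletal muscle, 0.0259 TPM.

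Subunits that accompany it were also highest in heart. CACNB2, a beta subunit that binds the pore subunit inside the cell (chromosome 10, 44421485 to 44886425, plus strand), averaged 7.50 ± 1.53 TPM in heart, against 1.45 ± 0.52 TPM in lung (SD, n = 8 each), a difference of 1.80 ± 0.10 on the log2 scale (SE, limma, adjusted p = 7.04e-18). CACNB2 held 68.5 ± 10.9% of the beta subunit TPM in heart, whereas CACNB3 held 67.5 ± 11.2% in lung and 74.5 ± 8.4% in kidney, and CACNB4 held 51.3 ± 12.2% in spleen. CACNG6, a gamma subunit (chromosome 6, 56129834 to 56151133, minus strand), averaged 9.52 ± 1.73 TPM in heart and 2.24 ± 0.90 TPM in lung, with no library of the other 3 organs above 0.611 TPM. Its difference between heart and lung was 1.73 ± 0.11 on the log2 scale (SE, limma, adjusted p = 4.83e-16). No other gamma gene reached a mean of 1 TPM in any organ.

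CACNA2D1, the alpha2delta subunit of muscle and the brain and a binding site of gabapentin (chromosome 9, 97781067 to 98266969, plus strand), was the most abundant member in heart, liver and lung. Its lowest, median and highest libraries were 18.9, 23.8 and 31.9 TPM in heart, 7.42, 19.97 and 29.4 TPM in liver, and 9.15, 16.5 and 25.6 TPM in lung. These ranges overlapped, and heart exceeded liver by 0.44 ± 0.16 on the log2 scale (SE, limma, adjusted p = 0.0166), a call that median-ratio scaling ended (0.33, adjusted p = 0.0556), as did leaving out the libraries numbered BS1 (adjusted p = 0.0623), BS2 (0.0516), DSE1 (0.0555) or DSE4 (0.0729). Kidney, at 2.86 ± 0.91 TPM (SD, n = 8), was lower than every other organ, the closest being spleen at 6.28 ± 1.45 TPM. That difference was -0.93 on the log2 scale (limma, adjusted p = 3.49e-06), and 1.83% of all tested genes were lowest in kidney. CACNA2D1 alone made up 99.8 ± 0.2% of the alpha2delta TPM in liver.

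CACNA2D3, another alpha2delta gene, was close to absent outside the heart but uneven within it. The BS hearts had 1.47, 1.15, 1.57 and 4.70 TPM and the DSE hearts 2.94, 2.0, 1.56 and 0.167 TPM, so 1 DSE heart lay within the range of the kidney libraries, 0.0602 to 0.324 TPM. Heart exceeded kidney by 1.20 ± 0.15 on the log2 scale (SE, limma, adjusted p = 1.06e-08). SCN3B, a sodium channel beta subunit, also varied among hearts, with 3.08, 3.19, 6.63 and 14.7 TPM in BS hearts and 3.73, 7.55, 2.21 and 2.66 TPM in DSE hearts. Its lung libraries ran from 0.410 to 3.29 TPM and overlapped the heart range, and the difference between heart and lung was 1.15 ± 0.21 on the log2 scale (SE, limma, adjusted p = 6.71e-06).

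SCN7A encodes a sodium channel alpha subunit that responds to sodium concentration rather than to voltage and is known from glia, peripheral nerve and muscle. It gave 4.77, 2.58, 4.06 and 4.96 TPM in BS hearts and 4.50, 6.41, 5.02 and 6.50 TPM in DSE hearts. The spleen libraries, its second organ, ran from 0.930 to 3.18 TPM, so the lowest heart lay within them, and heart minus spleen was 1.09 ± 0.10 on the log2 scale (SE, limma, adjusted p = 2.04e-12). Markers of Schwann cells, the glia of peripheral nerve, included SOX10, which averaged 2.76 TPM in BS hearts, 1.42 TPM in DSE hearts, 1.21 TPM in BS spleens and 1.11 TPM in DSE spleens. Outside these organs a single library exceeded 0.128 TPM of SOX10, the DSE2 lung at 1.97 TPM, which also had the highest SCN7A level of any lung, 0.739 TPM. The summed level of the 4 Schwann cell markers was not highest in heart: its medians were 37.5 and 9.60 TPM in BS and DSE hearts, 71.4 and 64.6 TPM in BS and DSE kidneys, and 53.3 and 84.8 TPM in BS and DSE lungs. SOX10 was higher in BS than in DSE hearts on average, whereas SCN7A averaged 4.09 TPM in BS hearts and 5.61 TPM in DSE hearts. The part of such cells in the SCN7A level was not tested.

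**Figure D2:**
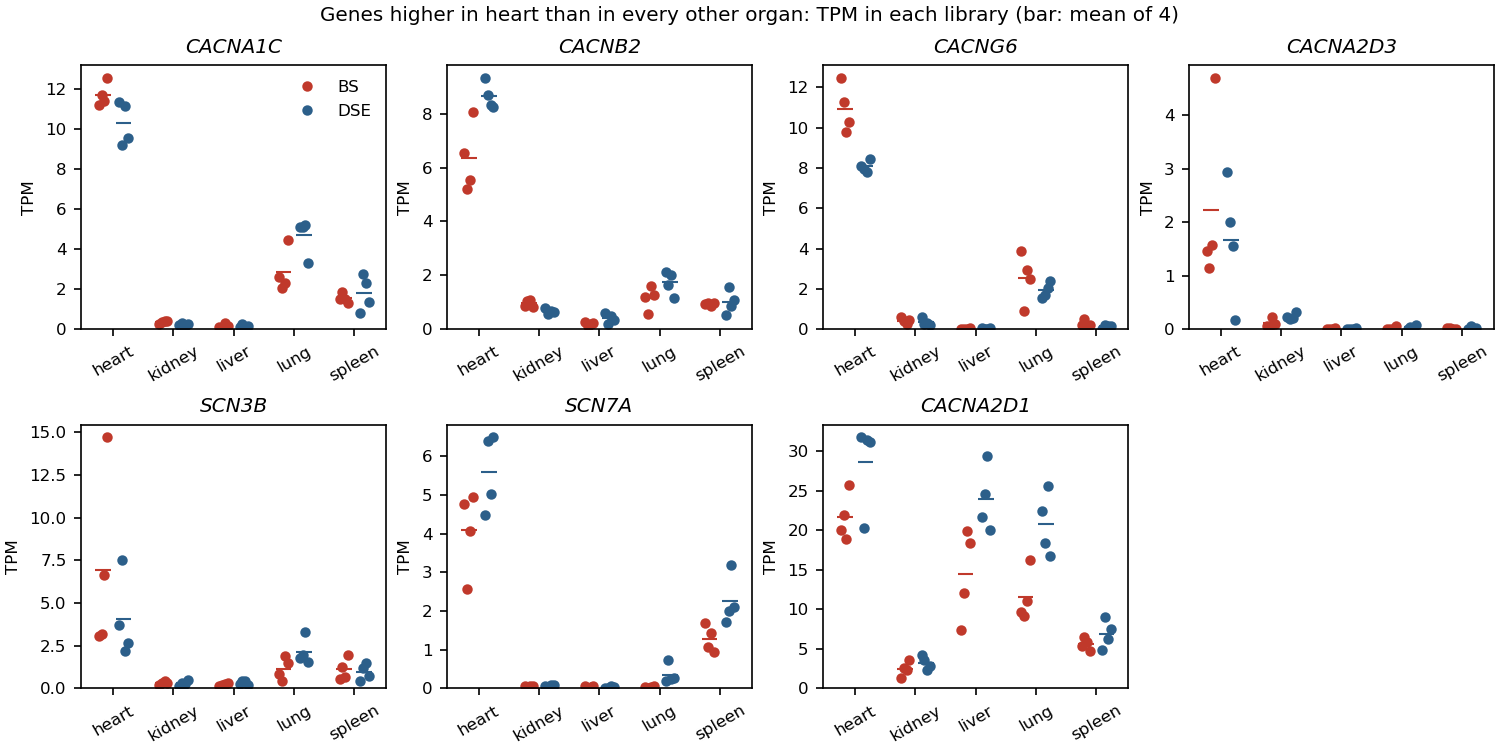
TPM (vertical axis, linear, from 0) of 7 genes counted as highest in heart in each library, by organ, with BS on the left in red and DSE on the right in blue; short bars are means of 4 libraries. Every heart lies above every library of the other organs for CACNA1C, whereas CACNA2D1 overlaps between heart, liver and lung, and SCN3B has 1 BS heart at 14.7 TPM.

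Lung had 4 members counted as highest, beside 20.8% of all tested genes, and 0 counted as lowest, beside 0.522%. CACNA1H, a T-type pore subunit (chromosome 3, 40637427 to 40695177, minus strand), gave 10.99, 9.54, 10.5 and 13.8 TPM in BS lungs and 10.6, 7.90, 7.90 and 6.27 TPM in DSE lungs. Heart came next with 3.94, 4.86, 8.81 and 7.61 TPM in BS and 3.05, 2.52, 2.72 and 2.24 TPM in DSE, and lung exceeded heart by 1.05 ± 0.16 on the log2 scale (SE, limma, adjusted p = 1.72e-07). CACNB3, another calcium channel beta subunit, averaged 9.19 ± 1.82 TPM in lung and 6.15 ± 3.18 TPM in kidney (SD, n = 8 each), a difference of 0.61 ± 0.11 on the log2 scale (SE, limma, adjusted p = 1.23e-05). After median-ratio scaling neither stood: CACNA1H was at -0.09 for lung against heart (adjusted p = 0.549) and CACNB3 at 0.21 for lung against kidney (adjusted p = 0.137), and no member was highest in lung, CACNA1S and CACNB1 having fallen below 1 TPM in every organ on that scale. CACNA1S had a lowest, median and highest level of 0.227, 1.54 and 2.81 TPM in lung, and its spleen libraries stayed at or under 0.909 TPM (difference 0.75 ± 0.14 on the log2 scale, SE, limma, adjusted p = 1.55e-05). Among skeletal muscle markers MYH1 and MYH4 were at or near 0 in lung, with at most 0.185 TPM of MYH1 in the DSE4 lung. ACTN3 and TNNT3 averaged 0.0285 and 0.0450 TPM there. Others of that list were not near 0: TNNI2 averaged 8.23 TPM in lung and was highest there (1.07 on the log2 scale, limma, adjusted p = 6.53e-05). CKM averaged 5.54 TPM in lung and 4875 TPM in heart. The part of skeletal muscle in the CACNA1S level was not tested. CACNB1, the beta subunit of skeletal muscle that is also found elsewhere, averaged 1.41 ± 0.24 TPM in lung and 0.984 ± 0.144 TPM in spleen (SD, n = 8 each), a difference of 0.28 ± 0.07 on the log2 scale (SE, limma, adjusted p = 0.000848).

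CACNA1D was shared by lung and spleen, with a lowest, median and highest level of 3.12, 4.97 and 8.05 TPM in lung and of 2.696, 5.18 and 6.74 TPM in spleen. The organs did not differ beyond their spread (lung minus spleen 0.10 ± 0.10 on the log2 scale, SE, limma, adjusted p = 0.411), and both exceeded kidney, liver and heart, where no library passed 0.642 TPM. CACNA1D made up 69.3 ± 7.3% of the L-type TPM in spleen and 50.6 ± 6.1% in lung. T-type genes made up 70.7 ± 10.7% of all alpha1 TPM in kidney and 46.4 ± 10.4% in lung, against 27.4 ± 8.8% in heart and 27.1 ± 6.8% in spleen (SD, n = 8 each).

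Spleen had 4 members counted as highest, beside 14.1% of all tested genes, and 0 counted as lowest, beside 2.5%. CACNB4, a beta subunit best known from the brain (chromosome 15, 186434 to 459856, plus strand), gave 3.12, 4.05, 3.50 and 5.20 TPM in BS spleens and 5.03, 7.64, 12.3 and 6.78 TPM in DSE spleens, and spleen exceeded lung by 1.46 ± 0.13 on the log2 scale (SE, limma, adjusted p = 1.13e-11). SCN2B, a sodium channel beta subunit that is joined to the alpha subunit by a disulfide bond, had 4.31, 2.57, 5.51 and 1.05 TPM in BS spleens and 1.65, 6.44, 3.53 and 3.87 TPM in DSE spleens, and its highest lung library, at 1.577 TPM, lay above the lowest spleen (1.29 ± 0.18 on the log2 scale, SE, limma, adjusted p = 8.27e-08). CACNA2D2, an alpha2delta gene, averaged 3.69 ± 1.09 TPM in spleen and 0.997 ± 0.376 TPM in kidney without overlap between their libraries (SD, n = 8 each; 1.22 on the log2 scale, limma, adjusted p = 5.97e-13). CACNA1E, the R-type pore subunit, had a lowest, median and highest level of 0.850, 2.17 and 4.45 TPM in spleen and of 0.472, 0.625 and 1.08 TPM in lung (0.83 on the log2 scale, limma, adjusted p = 2.74e-06).

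Some neuronal markers were also highest in spleen. STMN2, a tubulin-binding protein of neurons, had 22.5, 19.6, 37.1 and 26.6 TPM in BS spleens and 36.1, 62.9, 49.5 and 49.7 TPM in DSE spleens, and SNAP25, a protein of synaptic release, averaged 1.40 TPM in BS and 0.88 TPM in DSE spleens. ELAVL4, which marks neuronal cell bodies, was at or under 0.081 TPM in every spleen library. UCHL1, of the same list, was highest in kidney, at 15.15 TPM against 7.26 TPM in spleen (limma, adjusted p = 0.000358). PRPH and SYT1 had their highest means in liver (0.559 TPM) and lung (0.303 TPM). The sum of the 8 neuronal markers had medians of 32.3 TPM in BS spleens and 60.7 TPM in DSE spleens, against at most 22.3 TPM in any library of heart, kidney, liver or lung. Most of the spleen sum was STMN2, which averaged 38.0 TPM there. The part of nerve fibres in these channel levels was not tested.

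Kidney had a single member counted as highest, beside 16.7% of all tested genes. CACNA1I, a T-type pore subunit best known from the brain (chromosome 5, 8595909 to 8701367, minus strand), had 1.07, 1.28, 4.31 and 3.96 TPM in BS kidneys and 1.83, 3.28, 2.06 and 5.38 TPM in DSE kidneys. No library of another organ passed 0.378 TPM, and kidney exceeded spleen by 1.57 ± 0.14 on the log2 scale (SE, limma, adjusted p = 4.13e-12). CACNB3, described with the lung, had 10.2, 11.3, 5.04 and 7.56 TPM in BS and 3.14, 3.22, 4.36 and 4.34 TPM in DSE kidneys. Liver had no member counted as highest, beside 5.55% of all tested genes, and 4 members counted as lowest (CACNA1H, CACNB1, CACNB2 and CACNB3), beside 26.6%. Of these, CACNB3 was still lowest there after median-ratio scaling (-0.66, adjusted p = 2.3e-05), CACNA1H (-0.15, adjusted p = 0.343) and CACNB2 (-0.16, adjusted p = 0.0899) were not, and CACNB1 fell below 1 TPM in every organ and was not tested. In that organ CACNA2D1 averaged 19.2 ± 6.9 TPM and SCN8A 0.878 ± 0.440 TPM (SD, n = 8 each). After median-ratio scaling SCN8A was highest in liver (0.78 on the log2 scale over the next organ, limma, adjusted p = 4.57e-10). On that scale it passed 1 TPM only in liver, at 1.488 TPM, and had to be high there to be tested. As deposited, with genes tested from a mean of 0.1 TPM, SCN8A was highest in liver by 0.25 (limma, adjusted p = 0.00464).

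The remaining 20 genes stayed below a mean of 1 TPM in every organ. Of these, 16 reached a mean between 0.1 and 1 TPM in some organ and 4 (CACNA1F, CACNG1, CACNG2 and CACNG3) did not reach 0.1 TPM anywhere. None was listed at 0 in all 40 libraries, but CACNG2, which accompanies glutamate receptors in the brain, was listed at 0 in 39 and CACNG3 in 37. The sodium channels of brain and sensory neurons, SCN1A, SCN2A, SCN3A, SCN9A, SCN10A and SCN11A, had their highest organ means between 0.129 TPM (SCN2A in lung) and 0.363 TPM (SCN11A in spleen). SCN4A, the sodium channel of skeletal muscle, peaked at 0.198 TPM in heart. The P/Q-type and N-type genes CACNA1A and CACNA1B peaked at 0.366 TPM in spleen and 0.423 TPM in lung. SCN9A shares exonic positions with an unnamed gene on the opposite strand and CACNG8 with ssc-mir-935 on the same strand, and since no source used here says whether counting used strand, their low values could be shared with those genes. CACNA1B lies on an unplaced scaffold.

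BS and DSE pigs were compared in each organ on the members whose mean reached 1 TPM in either group. For the heart, 4 of 11 tested members were higher in BS and 2 lower, beside 22.2% and 11.1% of all tested genes. For the kidney 2 of 6 were higher and 0 lower, beside 23.9% and 21.5%. The liver had 0 of 3 higher and 2 lower, beside 23.5% and 12.9%. Lung had 1 of 12 higher and 6 lower, beside 18.5% and 37%, and spleen 1 of 14 higher and 4 lower, beside 14.5% and 21.3%. The median BS minus DSE difference of the tested members was 0.39 for heart, 0.01 for kidney, -0.53 for liver, -0.41 for lung and -0.07 for spleen on the log2 scale, beside all-gene medians of 0.03, -0.02, 0.04, -0.21 and -0.11 in the same organs.

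CACNB3 was higher in BS in heart and kidney. BS hearts had 2.39, 3.87, 3.73 and 3.996 TPM and DSE hearts 1.78, 1.64, 1.40 and 1.88 TPM, and neither these groups nor the kidney groups given above overlapped. BS minus DSE was 0.74 ± 0.16 in heart (adjusted p = 0.000725) and 0.96 ± 0.16 in kidney (adjusted p = 2e-05) on the log2 scale (SE, limma). In lung and spleen it was 0.29 and 0.25 (adjusted p = 0.129 and 0.217), although all 4 BS spleens lay above all DSE spleens. CACNA1H was higher in BS hearts, where the values listed with the lung above do not overlap between the pig groups, by 0.96 ± 0.22 on the log2 scale (SE, limma, adjusted p = 0.00123). Sums of the heart muscle markers, given above, were higher in BS hearts on average but overlapped. Of 3 markers, TNNT2 and MYH7 averaged 12630 and 5925 TPM in BS hearts and 9234 and 5036 TPM in DSE hearts, whereas MYL2 averaged 10780 TPM in BS hearts and 11740 TPM in DSE hearts. The part of muscle content in the heart differences was not tested.

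Lower levels in BS were found mainly among members with long transcripts. CACNA2D1 had 9.69, 9.15, 10.999 and 16.2 TPM in BS lungs and 22.4, 18.4, 25.6 and 16.7 TPM in DSE lungs, and 7.42, 12.1, 19.95 and 18.4 TPM in BS livers against 21.6, 24.7, 29.4 and 19.98 TPM in DSE livers. All 4 BS values were below all DSE values in both organs, and BS minus DSE was -0.81 ± 0.23 in lung (adjusted p = 0.00327) and -0.76 ± 0.23 in liver (adjusted p = 0.00912) on the log2 scale (SE, limma). The liver call was lost without BS1 (adjusted p = 0.0702). Over the organs, on the mean of the 5 libraries that carry the same number, which may or may not be 1 animal, BS minus DSE was -0.50 ± 0.11 for CACNA2D1 (SE, limma, adjusted p = 0.00442). CACNB4 gave 0.615, 0.187, 0.871 and 1.32 TPM in BS lungs and 1.86, 1.84, 3.60 and 2.10 TPM in DSE lungs, a difference of -0.95 ± 0.19 (adjusted p = 0.00012), with no overlap. It passed the level for testing in lung only through DSE, and with no filter on low values the adjusted p was 0.000262. In spleen, where the highest BS value given above exceeds the lowest DSE value, the difference was -0.80 ± 0.19 (adjusted p = 0.00161), a call lost with a pseudocount of 0.1 TPM (-0.93, adjusted p = 0.0787). The sum of 8 neuronal markers in spleen was also lower in BS than in DSE on average, mostly through STMN2 (26.5 TPM in BS and 49.6 TPM in DSE), whereas SNAP25 was higher in BS on average, and their part in the CACNB4 difference was not tested. CACNB4 was the only member whose BS minus DSE difference varied between organs (interaction F test in limma, adjusted p = 0.0378), beside 8.08% of all tested genes, and the call was lost without the libraries numbered BS1, DSE3 or DSE4, when no member passed. In heart, kidney and liver no CACNB4 library passed 0.609 TPM, and this scale understates differences at such levels. The call therefore cannot tell differences particular to some organs from low levels in the others.

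Over the organs 3 of 19 members were higher in BS and 4 lower, beside 25.5% and 30.6% of all tested genes. Beside CACNA2D1, given above, they included CACNB3 (0.51, adjusted p = 0.000413), CACNA1H (0.37, adjusted p = 0.00447), CACNB4 (-0.42, adjusted p = 0.00856), CACNA1D (-0.24, adjusted p = 0.00946) and SCN7A (-0.26, adjusted p = 0.0188). The SCN7A call was lost without BS2 (adjusted p = 0.0507) or DSE3 (0.0512).

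Further members were lower in BS in single organs. CACNA1D had 3.55, 5.07, 3.16 and 2.696 TPM in BS spleens, all below the DSE spleens at 5.62, 6.74, 6.74 and 5.30 TPM (-0.64 ± 0.14 on the log2 scale, SE, limma, adjusted p = 0.000742). SCN7A had 1.69, 1.06, 1.43 and 0.930 TPM in BS spleens and 1.72, 2.01, 3.18 and 2.11 TPM in DSE spleens (-0.51 ± 0.14, adjusted p = 0.00502, lost without DSE3 at 0.0537). CACNA1E had 0.858, 1.90, 2.44 and 0.850 TPM in BS spleens and 1.57, 4.45, 2.71 and 3.19 TPM in DSE spleens (-0.67, adjusted p = 0.0088), a call lost without BS1 (0.0592), BS4 (0.0535) or DSE2 (0.0776).

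In lung 3 L-type genes were lower in BS, with groups that overlapped for each. CACNA1C had 2.58, 2.06, 2.32 and 4.47 TPM in BS lungs and 5.08, 5.12, 5.20 and 3.33 TPM in DSE lungs (-0.58, limma, adjusted p = 0.00299). CACNA1D had 4.87, 3.12, 3.70 and 5.38 TPM in BS lungs and 8.05, 4.43, 7.43 and 5.08 TPM in DSE lungs (-0.45, adjusted p = 0.00689), a call lost without DSE1 (0.0672) or DSE3 (0.0514) and after median-ratio scaling (-0.21, adjusted p = 0.0814). CACNA1S had 0.227, 0.395, 1.25 and 1.84 TPM in BS lungs and 2.81, 0.602, 2.50 and 2.40 TPM in DSE lungs (-0.68, adjusted p = 0.00412). CACNA1S passed the level for testing in lung only through DSE, and with no filter on low values the adjusted p was 0.00744. The all-gene median in lung was itself -0.21.

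CACNB2 had 6.55, 5.21, 5.53 and 8.08 TPM in BS hearts and 9.34, 8.72, 8.31 and 8.24 TPM in DSE hearts, with no overlap (-0.41 ± 0.14, SE, limma, adjusted p = 0.0273). SCN7A in heart, listed above, differed by -0.39 ± 0.14 (adjusted p = 0.0278). Neither of these 2 calls passed without BS2 or without BS3, and 1 of them was lost without BS1 or any single DSE number. Both were also lost with a pseudocount of 0.1 TPM (adjusted p = 0.189 for CACNB2 and 0.167 for SCN7A). The same held with no filter on low values (0.0616 for CACNB2 and 0.0534 for SCN7A). CACNB2 in lung (1.15 TPM in BS and 1.74 TPM in DSE, -0.36, adjusted p = 0.0325) was lost without BS1 (0.0575), BS2 (0.225), DSE1 (0.0977) or DSE3 (0.119). This lung call was also lost with a pseudocount of 0.1 TPM (0.0632) or with no filter on low values (0.054). SCN8A, a sodium channel of neurons, had 0.972, 0.248, 0.655 and 0.327 TPM in BS livers and 0.907, 1.46, 1.16 and 1.30 TPM in DSE livers (-0.53, adjusted p = 0.000891), and also passed the level for testing only through DSE (adjusted p = 0.00104 with no filter on low values).

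**Figure D3:**
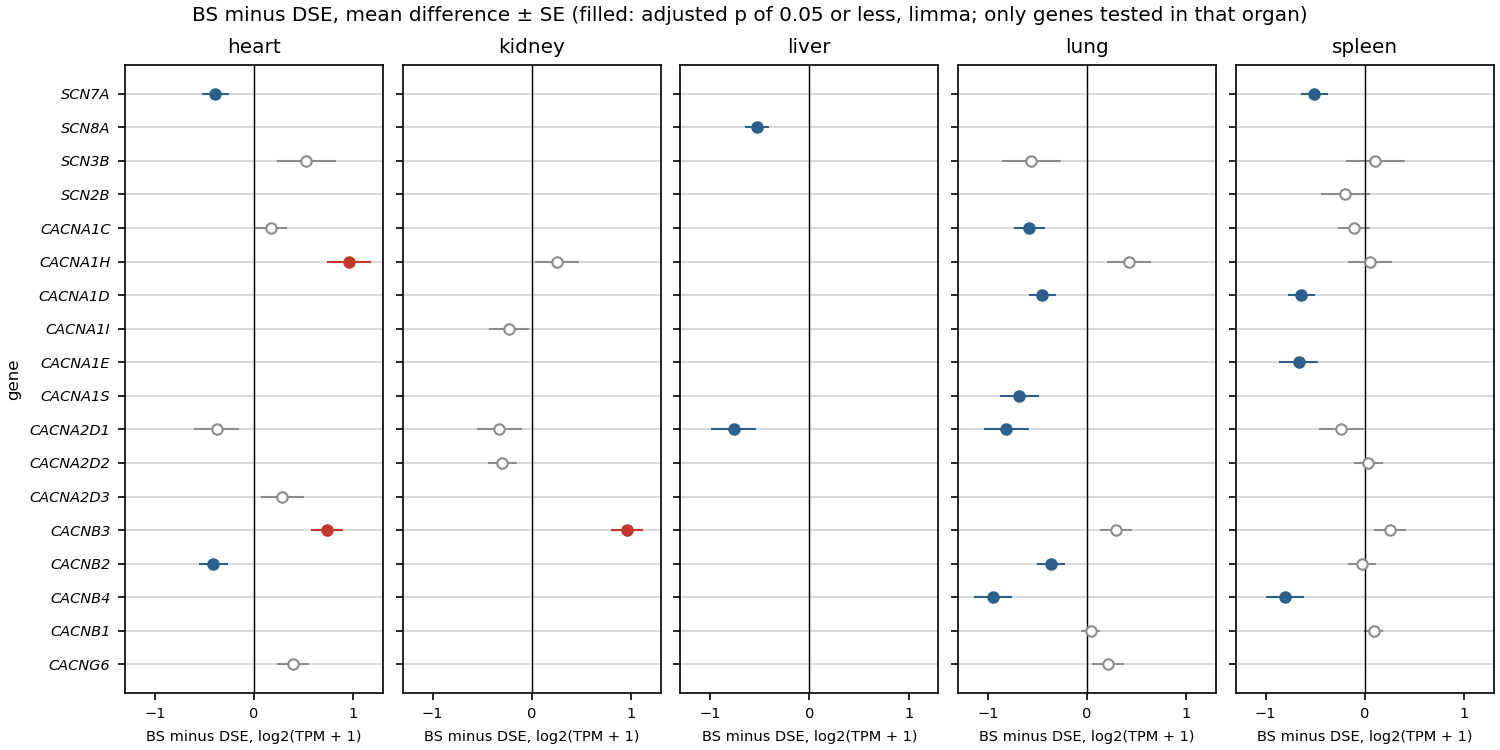
BS minus DSE difference on the log2(TPM + 1) scale (horizontal axis, mean ± SE from limma) for channel genes tested in each organ (rows); filled points have an adjusted p of 0.05 or less, red where BS is higher and blue where BS is lower, and open points do not pass. CACNA2D1 lies to the left of 0 in all 5 organs, and CACNB3 to the right of 0 in the 4 organs where it was tested.

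The pig groups also differed by transcript length across all genes. In every organ the median BS minus DSE difference of all tested genes declined over 4 classes of longest annotated transcript: in heart it was 0.26 under 2000 nt, 0.13 at 2000 to 4000 nt, -0.07 at 4000 to 6000 nt and -0.18 over 6000 nt, and in lung 0.07, -0.08, -0.34 and -0.50 over the same classes. The channel genes are among the longest genes: 11 of the 20 members tested here have a transcript over 6000 nt, and 12 of their 23 differences were calls lower in BS and 2 calls higher. Of all differences of genes in that class over the 5 organs, 32.5% were called lower in BS and 8.72% higher, and in lung alone 58.3% were called lower. CACNA1H in heart was called higher, where the median of its class was -0.18. With values centred on the median of the length class in each library, an analysis chosen after seeing the data, CACNB3 in heart (0.61, adjusted p = 0.00554) and kidney (0.86, adjusted p = 0.000126), CACNA2D1 in liver (-0.61, adjusted p = 0.0171), and CACNB4 in spleen (-0.52, adjusted p = 0.0119) and lung (-0.45, adjusted p = 0.0204) still passed. So did CACNA1H in heart (1.11, limma, adjusted p = 7.78e-05) and CACNA1D in spleen (-0.36, adjusted p = 0.02). CACNB2 also passed in heart (-0.54, adjusted p = 0.00147) and lung (-0.30, adjusted p = 0.0487). CACNA2D1 in lung (-0.31, adjusted p = 0.2), CACNA1C in lung (-0.08, adjusted p = 0.608), CACNA1S in lung (-0.18, adjusted p = 0.446), SCN8A in liver (-0.37, adjusted p = 0.0608), CACNA1E in spleen (-0.38, adjusted p = 0.133) and SCN7A in heart (-0.24, adjusted p = 0.267) and spleen (-0.23, adjusted p = 0.296) did not. CACNA1D in lung turned to 0.05 (adjusted p = 0.745). Centring also gave calls higher in BS that the values as deposited did not, for CACNA1H in lung (0.92, adjusted p = 0.000324) and kidney (0.53, adjusted p = 0.0314) and for CACNA1C in heart (0.33, adjusted p = 0.0377).

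**Figure D4:**
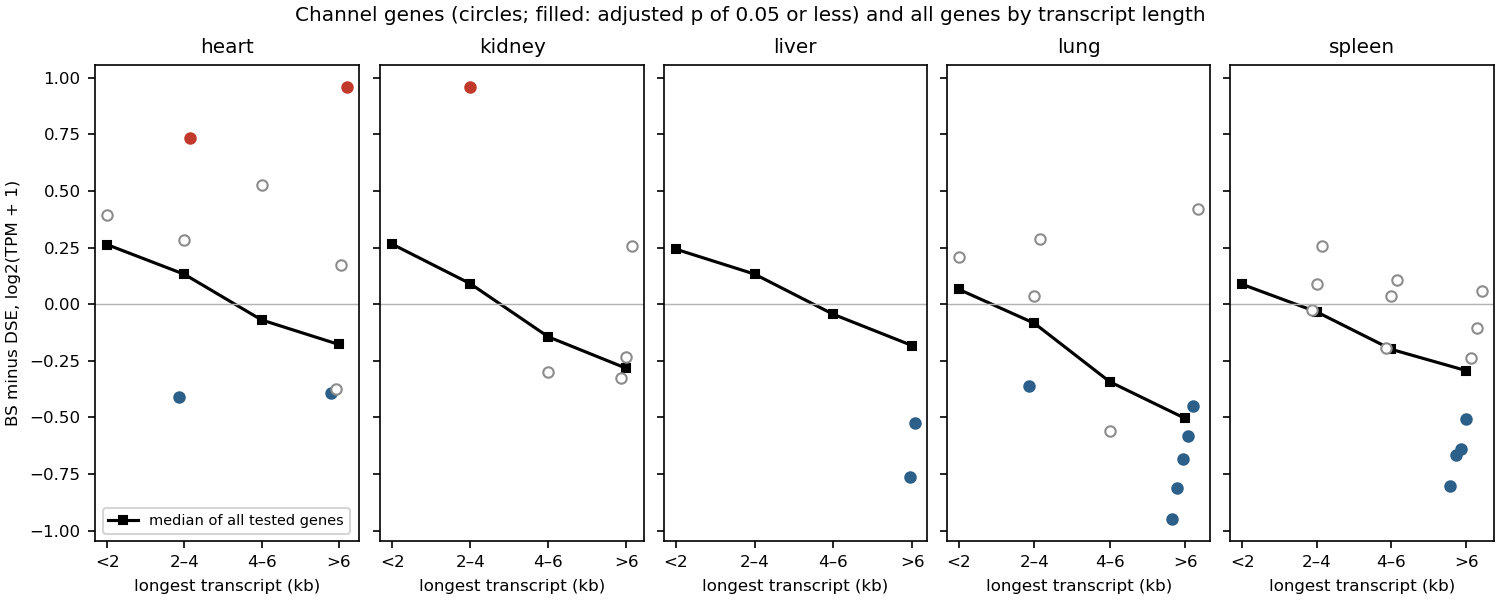
BS minus DSE difference on the log2(TPM + 1) scale (vertical axis) by length class of the longest annotated transcript (horizontal axis, kb) in each organ; black squares are medians of all tested genes and circles are channel genes, filled where the adjusted p is 0.05 or less (red higher in BS, blue lower in BS). The all-gene medians decline with length in all 5 organs, and most of the lower calls sit over 6 kb.

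Transcript composition was compared for the 7 members that averaged 2 TPM or more in at least 2 organs, as the share of a gene's TPM that each transcript holds. Shares differed by at least 20 points between the organs compared for 4 transcripts, of which 2 are the complementary transcripts of CACNG6. Since they were chosen for that difference, their shares are given as a description, with no test. CACNG6 has 2 annotated transcripts, 1 with and 1 without an exon of 138 nt at 56140385 to 56140522. The transcript with the exon held 70.4 ± 4.3% of CACNG6 in heart, where the libraries ran from 64.3% to 75.6%, and 1.72 ± 3.18% in lung, where no library passed 7.01% (SD, n = 8 each). CACNA1C carries a pair of neighbouring exons of 104 nt, at 69315667 to 69315770 and 69316012 to 69316115, and each of its 10 transcripts has 1 of the pair and none has both. The transcript ENSSSCT00000094185 held 65.6 ± 5.3% of CACNA1C in heart and 38.9 ± 6.0% in lung. Summed over transcripts, the first exon of the pair was in 67.3 ± 5.2% of CACNA1C in heart, 42.7 ± 7.2% in lung and 40.8 ± 11.4% in spleen (SD, n = 8 each). CACNA1D has a pair of the same size, at 35769606 to 35769709 and 35770265 to 35770368, whose first exon was in 65.2 ± 11.2% of CACNA1D in lung and 60.2 ± 11.5% in spleen. These exon shares were looked at after the values were seen and were not tested. CACNB2, below the level for the test outside the heart, started at 44653187 for 78.9 ± 12.4% of its heart TPM and for 1.42 ± 4.0% in lung.

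CACNA2D1 has the most transcripts built from long reads: 22 of its 26 annotated transcripts, and 28 of the 176 annotated transcripts of all members, came from PacBio reads. Its transcripts start in 5 groups of neighbouring positions. In the short reads the first group, from 97781067, held 25.8 ± 4.4% of CACNA2D1 in heart, and the second, from 97814589, held 65.4 ± 15.4% in heart and 9.3 ± 10.5% in liver. The third group, from 97940183, held 53.1 ± 16.8% in liver and 0.234 ± 0.260% in heart (SD, n = 8 each), nearly all of it from the transcript PB.12555.42, which had 51.2 ± 16.4% of the gene in liver and 0% in every heart library. Annotated coding lengths were 2175 to 3333 nt in the first group, 2517 to 3195 nt in the second and 2223 to 2496 nt in the third.

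The full-length reads of the same organs gave another picture. Of the 23 liver reads of CACNA2D1 that carry an annotated name, BS and DSE libraries summed, 22 belonged to the first start group and 1 to the third, which is 4.35% of them (exact binomial 95% interval 0.11 to 22.0%, counting error only). In heart, 19 of 101 such reads in BS (18.8%, interval 11.7 to 27.8%) and 18 of 31 in DSE (58.1%, interval 39.1 to 75.5%) belonged to the second group, and the others to the first. No read of kidney, lung or spleen fell in the second group. With BS and DSE summed, liver reads of the second group were 0 of 23 and lung reads 0 of 20, which allows shares of up to 13.04% and 15.0% if a count of 0 is read as at most 3 reads, while the short reads gave the second group 23.2 ± 19.5% in lung. That short-read share was 11.8% in BS lungs and 34.6% in DSE lungs, and 15 of the 20 lung reads came from BS. The high share of the third start in liver appeared in the short-read estimates and not in the full-length reads. Each pig group and organ has 1 long-read library, so no test between libraries was made.

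**Figure D5:**
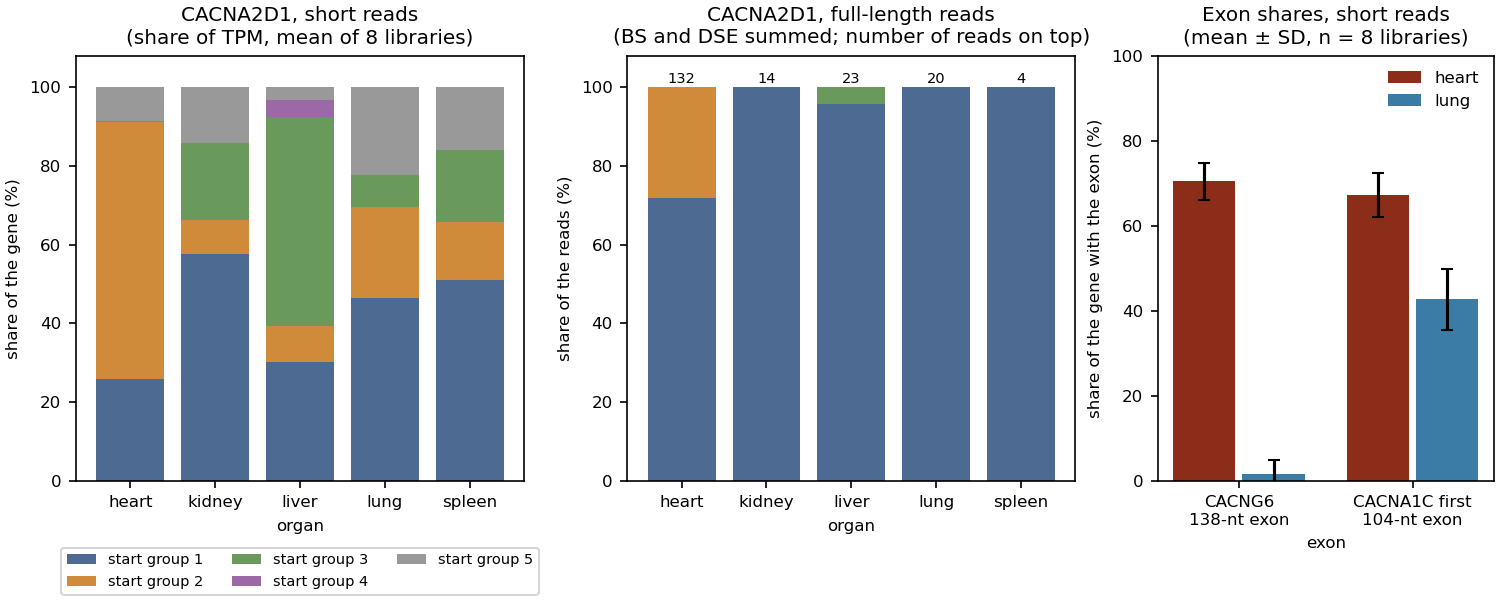
Left, share of CACNA2D1 TPM held by each of its 5 start groups in each organ (percent, mean of 8 short-read libraries); middle, share of the named full-length reads in the same groups (percent, BS and DSE summed, number of reads on top); right, share of CACNG6 and CACNA1C TPM in transcripts with the exon named on the axis, in heart and lung (percent, mean ± SD, n = 8). The third start group fills 53.1% of liver in the short reads and 1 of 23 liver reads in the long reads.

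Other members were seldom read at full length. The libraries held 119623 to 456783 full-length reads, and 4 members had any, among them CACNA2D1 with 227, SCN7A with 53 and SCN2B with 1. SCN7A had 39 reads in BS heart, 10 in DSE heart, 1 in BS spleen and 3 in DSE spleen, the same organs as its short-read levels. CACNA1C, at 11.02 TPM in heart, had no full-length read in any of the 10 libraries.

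Genes that anchor, modify or couple these channels were read from a list of 39 partners, of which 33 were named in the table and 26 tested. Of these 26, 9 were highest in heart, 6 in lung, 4 in kidney, 3 in spleen and 0 in liver, with the shares of all genes given above. In heart the leading ones were CAV3, the caveolin of muscle, at 70.7 TPM on average, RYR2, the calcium release channel that CACNA1C triggers, at 83.3 TPM, and PKP2, a desmosome protein at the intercalated disc, at 57.0 TPM, which exceeded the next organ by 4.72, 3.500 and 2.60 on the log2 scale (limma, adjusted p = 7.75e-25, 1.68e-17 and 4.64e-17). Kidney was led by TPCN2 (2.28, adjusted p = 1.11e-15) and TPCN1 (1.575, adjusted p = 3.77e-12), which encode ion channels of endosomes and lysosomes, and by the calmodulin gene CALM3 (1.26, adjusted p = 4.19e-10). In lung the leading ones included STAC2, an adaptor of L-type channels (1.498, adjusted p = 5.35e-10), and REM1, a small GTPase that inhibits calcium channels (1.32, adjusted p = 1.23e-08). Spleen was led by AKAP7 and AKAP5, which anchor protein kinase A near the channels (2.07 and 1.32, adjusted p = 5.68e-15 and 2.4e-11), and by STAC (0.52, adjusted p = 0.000719). STAC averaged 1.74 TPM in spleen and 0.891 TPM in heart, its second organ, so it had to be high in spleen to be tested. Over the organs 4 partners were higher in BS and 7 lower, beside 25.5% and 30.6% of all tested genes.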

How the data were processed

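The data were gene and transcript TPM values from 40 Illumina libraries (4 BS and 4 DSE in each of 5 organs) and counts of full-length reads from 10 PacBio libraries. The authors deposited TPM per gene and per transcript. Per the submitters' processing notes the tools were STAR 2.7.10a and Salmon 1.10.1 with the build susScr11, and per the file headers the annotation was written with rtracklayer 1.58.0. The deposited full-length read counts are raw counts per long-read transcript. Whether counting used strand is not given in the sources used here. Columns whose code matches no label (20 of the gene table, 20 of the transcript table and 5 of the long-read table) were not used.

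Genes that averaged 1 TPM or more in some organ were tested on log2(TPM + 1) with limma 3.58.1 (R 4.3.3) with a mean-variance trend and Benjamini-Hochberg adjustment over all tested genes, at a threshold of 0.05. BS minus DSE over organs was fitted on the mean of the 5 libraries of each replicate number. Transcript shares that differed by 20 points or more between organs are described without a test. Full-length reads carry exact binomial (Clopper-Pearson) intervals at 95% (scipy 1.17.1), and a count of 0 allows up to 3 reads; both cover counting error only. Reads were assigned to a gene by their own annotated transcript (51.9%), by locus (35.9%) or not to a single gene. The limma steps were tested on simulated data. Members, lists and tests were chosen with earlier results of these data known. Values are given in every library, or as lowest, median and highest, for members called in an organ or between pig groups and for the 2 most abundant members of each organ; of the partners, the 3 with the largest smallest contrast per organ are named. Results on some genes that these rules select are not reported here, though counts include them. Alternatives were another pseudocount, filter or scaling, leaving out each replicate number, a replicate block and, chosen after seeing the data, centring within transcript length classes.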

Additional observations from a re-analysis of the deposited data

Results flagged for a closer look

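In 7 of 83 groups of 4 libraries 1 library stood apart from the other 3, and chance flags about 1 in 20 groups. CACNB3 did so in 3 groups: 1 BS heart was low at 2.39 TPM (next 3.73), 1 BS spleen high at 4.25 TPM (next 3.44) and 1 DSE spleen low at 2.01 TPM (next 3.13). CACNA2D3 was high in 1 BS heart at 4.70 TPM (next 1.57). CACNA2D1 was low in 1 DSE heart at 20.2 TPM (next 31.1). CACNA1C was low in 1 DSE lung at 3.33 TPM (next 5.08), and CACNB4 high in another DSE lung at 3.60 TPM (next 2.10).

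The BS minus DSE difference of CACNB4 varied between organs (interaction F test in limma, adjusted p = 0.0378), being -0.95 in lung and -0.80 in spleen on the log2 scale. Leaving out BS1, DSE3 or DSE4 ended that call. No CACNB4 library of heart, kidney or liver passed 0.609 TPM, where this scale understates differences.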

How the results depend on the processing

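Of 660 values that 50 single-gene or single-transcript results took under alternatives, 601 kept direction and side of the threshold, 57 lost the threshold (35 of them without 1 replicate number) and 2 reversed: CACNA1H in lung under median-ratio scaling (-0.0949) and CACNA1D in lung with length-class centring (0.05053). The causes were not tested. With a pseudocount of 0.1 TPM, 1 member was lowest in heart, 8 lowest in liver and 0 lower in BS hearts. With genes from 0.1 TPM, 1 was lowest in heart, 7 highest in lung, 7 in spleen, 3 in kidney and 1 in liver, 1 lower in BS kidneys, 11 lower in BS lungs, 2 higher in BS spleens, 8 lower over organs and 4 varied between organs. With no filter the counts were the same except 0 lower in BS hearts, 10 lower in BS lungs, and 7 higher and 9 lower over organs. Median-ratio scaling gave 2 lowest in heart, 2 highest and 2 lowest in liver (CACNB3 and CACNA1E), 0 highest and 1 lowest in lung, 3 higher in BS lungs and 2 that varied between organs. Length-class centring gave 1 lower in BS hearts, 1 lower in BS livers, 2 higher and 2 lower in BS lungs and 2 lower in BS spleens. Transcripts of members from 5 TPM gave 1 transcript that differed by 20 points or more.

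Leaving out the libraries of 1 replicate number gave 3 to 5 members higher and 0 to 2 lower in BS hearts, 1 to 2 higher and 0 to 1 lower in kidneys, 0 to 1 higher and 1 to 2 lower in livers, 0 to 1 higher and 4 to 7 lower in lungs, 1 higher and 3 to 4 lower in spleens, 3 higher and 3 to 4 lower over organs, 0 to 2 varying between organs, 7 to 8 highest in heart, 4 to 5 highest in lung and 4 to 5 transcripts that differed by 20 points or more.

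Replicate numbers were not taken to pair the samples, since not every correlation passed 0.1: deviations of organs with the same number correlated at -0.11 to 0.45, with medians of -0.03 to 0.18 per number, and those of BS and DSE with the same number at -0.24 to 0.08. With the number as a replicate block, the count lower in BS over organs was 3 in place of 4 (SCN7A, adjusted p = 0.0611), and no other count changed. Short-read depth is unknown, which limits statements on members below 1 TPM, and each long-read value rests on 1 library.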
